A study of Mus musculus with 2 samples.

Results

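The 8 genes described here, *Cp*, *Gpx3*, *Sparc*, *Lpar1*, *S1pr3*, *Acot1*, *Mdfi* and *Dapl1*, are 8 of the 28692 genes in the count matrices of the mouse retina at E14.5. They were picked by their symbols because earlier results of these same libraries placed them at the top of the retinal progenitor cells (RPCs) that lack mitotic transcripts. Their levels in those cells therefore chose them, and each level below is a description and no test. The retinas came from *LHX4::GFP* embryos, heterozygous for a bacterial artificial chromosome, strain Tg(Lhx4::EGFP)KN199Gsat/Mmucd, in which *LHX4* sequences drive GFP in newborn cones. Retinas of 2 litters formed one pool before sorting, and the GFP+ and GFP− fractions each gave 1 droplet library. Both fractions carry the reporter, and the labels name no treatment. With 1 library per gate there was no replicate, the gate and the library cannot be told apart, and no p-value is given for any difference.

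These genes have unlike roles. *Cp* encodes ceruloplasmin, a copper-binding ferroxidase that oxidizes iron as it leaves cells, and *Gpx3* encodes a secreted glutathione peroxidase that reduces peroxides outside the cell. *Sparc* encodes a secreted protein that binds collagen and calcium in the extracellular matrix. *Lpar1* and *S1pr3* encode G protein-coupled receptors for the lysophospholipids lysophosphatidic acid (LPA) and sphingosine-1-phosphate (S1P). *Acot1* encodes a cytosolic acyl-CoA thioesterase, which splits fatty acyl-CoA into fatty acid and coenzyme A. *Mdfi* encodes an inhibitor of the MyoD family of basic helix-loop-helix factors, and *Dapl1* encodes a small protein related to death-associated protein. Progenitors of the embryonic retina divide at the ventricular surface. Some of them leave the cycle through a neurogenic state marked by *Atoh7*, *Neurog2* or *Olig2* and become retinal ganglion cells (RGCs), amacrine or horizontal cells (AC/HC) or cones.

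In GRCm38 the genes lie on 7 chromosomes. *Gpx3* (chr11:54902453-54910377, plus strand) and *Sparc* (chr11:55394500-55423183, minus strand) are the only pair on the same chromosome, 484 kb apart with 8 protein-coding genes between them. Of the 5 genes in that stretch with enough UMIs, 1 was at least 2-fold higher in non-mitotic progenitors than in neurogenic cells, *Anxa6* at 3.44-fold (95% interval, 1.17 to 13.7), which is named here after its value was seen. Over all 12774 genes tested, 10.9% were. The others are *Cp* (chr3:19957054-20009145, plus), *Lpar1* (chr4:58435255-58553898, minus), *S1pr3* (chr13:51408639-51422797, plus), *Acot1* (chr12:84009490-84018371, plus), *Mdfi* (chr17:47815328-47834691, minus) and *Dapl1* (chr2:59484653-59505020, plus). The *Cp* locus overlaps that of *Hps3* on the opposite strand. In the last 500 bases of its transcripts, where these 3′ libraries read, *Acot1* shared 65 of its 902 runs of 50 bases (7.21%) with *Acot2*, so part of the reads of both cannot be assigned, and the other 7 genes shared none with any gene. RefSeq start sites gave 12 promoter windows of 300 bases (250 before to 50 after the start) for the 8 genes. Windows of 6 genes are printed so that a reader can compare the letters before their starts. Each printed window holds at least 1 of the motifs marked in it. The *Sparc* window and the first *Mdfi* window, which are not printed, hold none of these. Capitals mark, on either strand, the GC box GGGCGG, the CCAAT box CCAAT, the TATA box TATAAA, the SOX motif ACAATG (12.6% of all windows) and the TEAD motif GGAATG (14.7%).
*Cp*, GRCm38.p6 chr3:19956999-19957298, plus strand, RefSeq: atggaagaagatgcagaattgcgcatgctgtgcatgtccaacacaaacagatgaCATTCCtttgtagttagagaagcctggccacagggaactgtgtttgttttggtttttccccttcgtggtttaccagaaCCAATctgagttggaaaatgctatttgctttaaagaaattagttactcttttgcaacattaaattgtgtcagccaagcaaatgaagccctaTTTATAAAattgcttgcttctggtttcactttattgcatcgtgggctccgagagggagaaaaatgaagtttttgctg
*Gpx3*, GRCm38.p6 chr11:54902604-54902903, plus strand, RefSeq: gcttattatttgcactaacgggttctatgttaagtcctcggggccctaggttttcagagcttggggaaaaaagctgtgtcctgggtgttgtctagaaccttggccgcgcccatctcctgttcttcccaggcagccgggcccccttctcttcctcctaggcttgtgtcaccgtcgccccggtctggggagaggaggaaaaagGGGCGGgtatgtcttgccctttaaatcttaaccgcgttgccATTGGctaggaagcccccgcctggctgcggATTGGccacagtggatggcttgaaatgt
*S1pr3*, GRCm38.p6 chr13:51408368-51408667, plus strand, RefSeq: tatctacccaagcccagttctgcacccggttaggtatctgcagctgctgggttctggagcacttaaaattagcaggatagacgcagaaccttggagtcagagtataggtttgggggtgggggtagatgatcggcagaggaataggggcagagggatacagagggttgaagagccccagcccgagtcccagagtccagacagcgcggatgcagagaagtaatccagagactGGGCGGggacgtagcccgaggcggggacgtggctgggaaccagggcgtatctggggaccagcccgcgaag
*Acot1*, GRCm38.p6 chr12:84009252-84009551, plus strand, RefSeq: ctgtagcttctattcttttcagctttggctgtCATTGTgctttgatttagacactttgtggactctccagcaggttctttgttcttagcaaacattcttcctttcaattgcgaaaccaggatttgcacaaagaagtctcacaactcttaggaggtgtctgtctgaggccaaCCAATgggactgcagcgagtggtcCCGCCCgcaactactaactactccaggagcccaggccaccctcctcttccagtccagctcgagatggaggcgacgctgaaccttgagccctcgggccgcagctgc
*Mdfi*, GRCm38.p6 chr17:47833242-47833541, minus strand, RefSeq: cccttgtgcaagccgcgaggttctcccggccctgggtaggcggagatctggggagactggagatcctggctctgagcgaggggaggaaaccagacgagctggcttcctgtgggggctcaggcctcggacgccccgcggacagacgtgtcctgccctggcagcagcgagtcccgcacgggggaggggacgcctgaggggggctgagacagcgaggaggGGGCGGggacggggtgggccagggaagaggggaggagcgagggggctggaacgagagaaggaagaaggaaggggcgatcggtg
*Dapl1*, GRCm38.p6 chr2:59484403-59484702, plus strand, RefSeq: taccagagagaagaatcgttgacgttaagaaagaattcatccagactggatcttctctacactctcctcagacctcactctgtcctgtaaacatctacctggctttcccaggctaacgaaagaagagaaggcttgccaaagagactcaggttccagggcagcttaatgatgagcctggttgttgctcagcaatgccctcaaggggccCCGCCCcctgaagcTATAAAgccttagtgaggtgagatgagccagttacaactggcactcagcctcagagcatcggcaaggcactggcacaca

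A GC box stood in 7 of the 12 windows, of 6 genes (*Gpx3*, *Lpar1*, *S1pr3*, *Acot1*, *Mdfi* and *Dapl1*), against 35.7% of the 32851 windows of all genes. The *Cp* window printed above and the *Dapl1* window held TATAAA, at positions -25 and -29 from the start (in *Cp* it overlaps a copy on the other strand at -27), a motif of 13.6% of all windows. A CCAAT box was found in windows of *Cp*, *Gpx3*, *Lpar1* and *Acot1* (37.4% of all windows), with 2 in *Gpx3*. The homeodomain motif TAATTA (5.29% of all windows) was found once, in the third *Lpar1* window. An E-box CANNTG, which 72.3% of all windows hold, was found in at least 1 window of 7 genes and not in that of *Gpx3*. Neither the T-box motif TCACACC (3.98%) nor the antioxidant response element TGACNNNGC (12.4%) occurred in any of the 12 windows. No motif was held by all 8 genes.

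With cells of more than 250 and fewer than 3500 genes kept, the GFP+ library held 3689 cells with a median of 3894 UMIs (unique molecular identifiers, 1 per captured transcript) and the GFP− library 3389 cells with a median of 8848 UMIs. The upper limit on genes left out 39 GFP+ and 1055 of the 4445 deposited GFP− cells, unevenly by the groups set below. It left out 577 of 1114 RGC-marker cells and 267 of 665 mitotic progenitors, but 41 of 942 non-mitotic progenitors. Of the deposited barcodes, 20 occurred in both libraries. Cells were grouped by UMIs of marker genes, none of them a gene described here. The GFP− library held 901 non-mitotic, 409 intermediate and 398 mitotic progenitors (with 0 to 2, 3 to 9 and at least 10 UMIs over 10 mitotic genes), 580 neurogenic cells, 537 RGC-marker cells, 415 AC/HC-marker cells, 66 cone-marker cells and 83 unassigned cells. All but 96 of the GFP+ cells (2.60%) had cone markers. Levels are UMIs per 1000000 UMIs of the same cells (CPM), with 95% exact Poisson intervals, and ratios have 95% exact conditional intervals. These cover counting error only, and as cells of 1 library are not replicates, they say nothing about other retinas.

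All 8 genes were more abundant in the GFP− population. *Cp* was at 67.9 CPM (64.9 to 70.9, 2042 UMIs) in GFP− cells and 1.16 CPM (0.688 to 1.84, 18 UMIs) in GFP+ cells, a ratio of 58.4 (36.9 to 98.8). *Lpar1* differed 38.9-fold (21.6 to 78.3), with 27.6 CPM against 0.710, and *Sparc* 38.4-fold (30.6 to 48.8), with 188 CPM against 4.90. *Dapl1* was at 571.0 CPM (562 to 580) in GFP− cells and 28.4 CPM (25.9 to 31.2) in GFP+ cells, 20.1-fold apart (18.3 to 22.1). The receptor *S1pr3* followed at 17.2-fold (9.93 to 32.5, 14.4 against 0.839 CPM) and *Acot1* at 8.99-fold (5.85 to 14.52, 12.8 against 1.42 CPM). The smallest ratios were those of *Mdfi*, 5.18 (3.23 to 8.79, 6.35 against 1.23 CPM), and *Gpx3*, 4.32 (3.38 to 5.58, 20.3 against 4.71 CPM). All 8 were thus at least 2-fold higher in GFP− cells, as were 16.8% of the 15236 genes with at least 10 UMIs, and since the members were chosen for a pattern within this contrast the count carries no weight of its own. The median of all genes in this contrast was -0.31 on the log2 scale in CPM and 0.02 with TMM factors, a shift far below these ratios. Leaving the upper limit on genes out lowered the ratios of *Cp* to 18.5, *Sparc* to 21.1 and *Dapl1* to 12.0. With each cell thinned to 3200 UMIs that of *Cp* was 229, which rests on very few GFP+ UMIs. In another draw a *Cp* UMI was left in 4 of 3110 thinned GFP+ cells, and 579 shallower cells were left out.

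Much of what the GFP+ library held of these genes lay in its 96 cells without cone markers. They carried 12 of the 18 *Cp* UMIs, 9 of 11 for *Lpar1*, 45 of 76 for *Sparc* and 243 of 441 for *Dapl1* (55.1%). The share was smaller for *S1pr3* (4 of 13), *Acot1* (6 of 22) and *Gpx3* (10 of 73, 13.7%), and for *Mdfi* it was 1 of 19 (5.26%). Among these cells were 17 progenitors, in which *Dapl1* was at 852 CPM (708 to 1017), *Sparc* at 215 CPM (146 to 305) and *Cp* at 62.4 CPM (28.5 to 118). The GFP− progenitors as a whole were at 915 CPM for *Dapl1*, 306 CPM for *Sparc* and 114 CPM for *Cp*. *Mdfi* had 0 UMIs in the 17 cells, where the interval reaches 25.6 CPM, so a level like the 10.8 CPM of the GFP− progenitors was not detectable in them.

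Within the GFP− library, 7 of the 8 genes had their highest level in non-mitotic progenitors, which is how they had been picked, and *Dapl1* was highest in mitotic progenitors. The 3 progenitor groups were within 2-fold of each other for every gene. For all but *Acot1*, the step from mitotic progenitors to neurogenic cells was larger than that from non-mitotic to mitotic progenitors. *Acot1* was 1.78-fold apart within the progenitors, and *Lpar1* was separated between intermediate and mitotic progenitors (1.49, 1.17 to 1.89). The plot of levels by cell group shows this order.

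**Figure D1:**
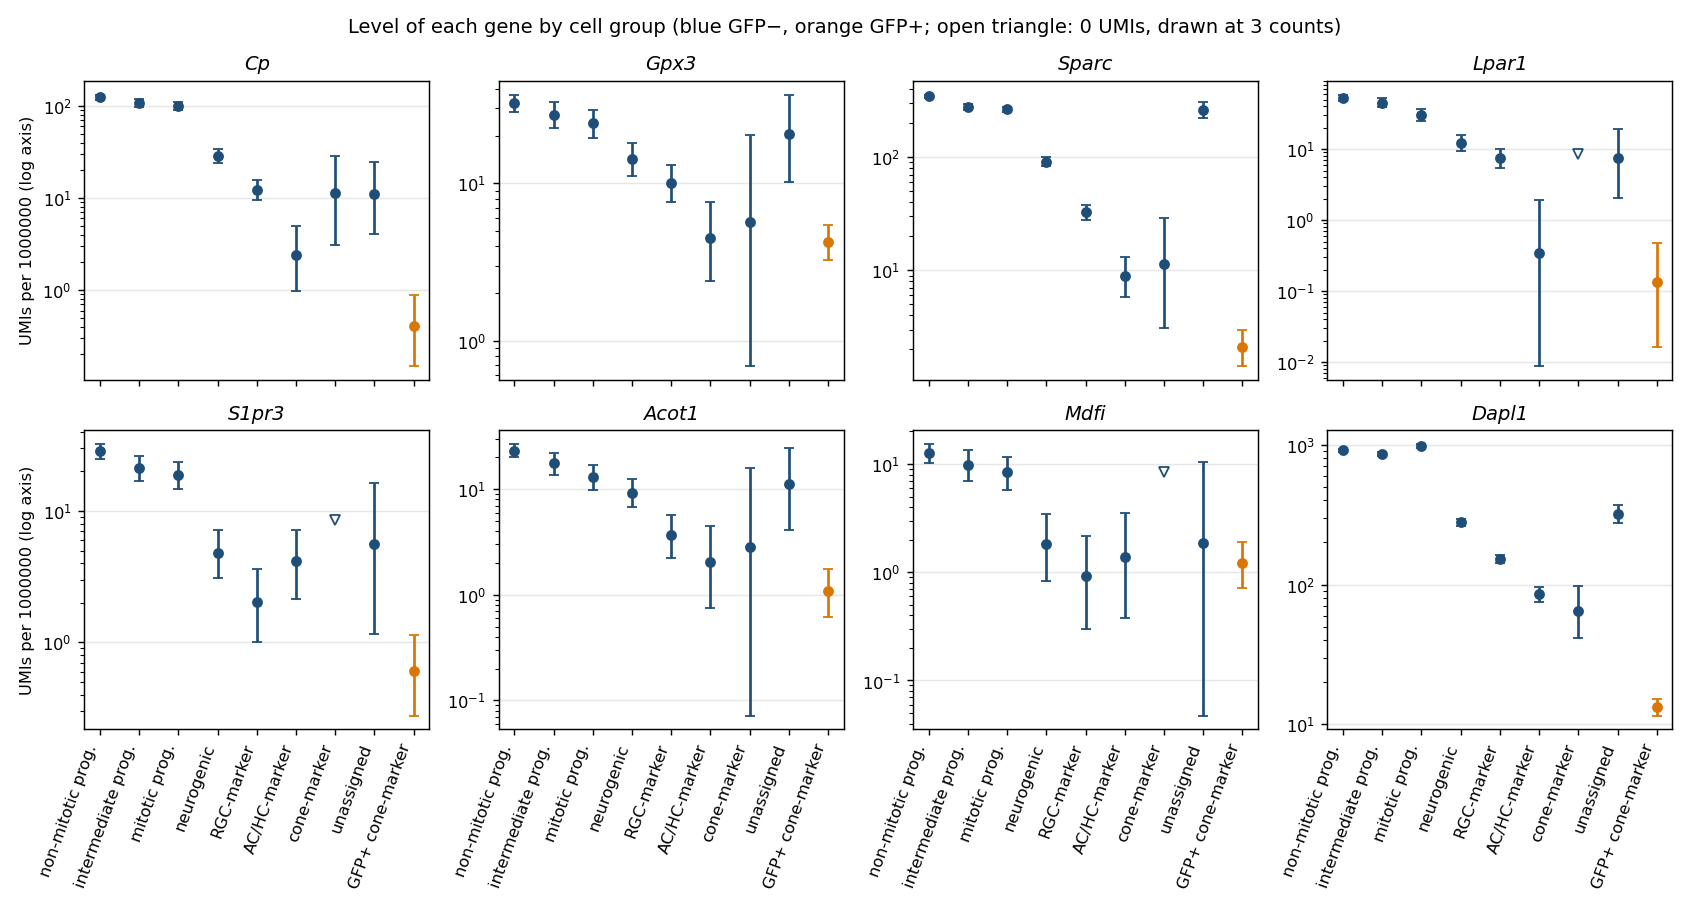
Level of each gene in UMIs per 1000000 (log axis, own scale per panel) in the 8 GFP− cell groups (blue) and in GFP+ cone-marker cells (orange), with bars for the 95% exact Poisson interval. An open triangle marks a group with 0 UMIs, drawn at 3 counts. In each panel the 3 progenitor groups are within 2-fold of each other, and the GFP+ cone-marker cells lie at 0.134 (*Lpar1*) to 13.3 CPM (*Dapl1*).

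*Cp* was at 125 CPM (117 to 133) in non-mitotic, 108 CPM (97.8 to 119) in intermediate and 100.3 CPM (90.8 to 111) in mitotic progenitors. It was at 28.6 CPM in neurogenic cells, 12.3 CPM in RGC-marker cells, 11.2 CPM in unassigned cells and 2.41 CPM in AC/HC-marker cells. The 3 highest groups were separated from the rest beyond counting error, while intermediate and mitotic progenitors were not separated from each other (ratio 1.08, 0.936 to 1.24). A *Cp* UMI was found in 60.9% of non-mitotic progenitors (median 8754 UMIs per cell) and in 1.45% of AC/HC-marker cells (median 6781 UMIs), and after thinning to 3200 UMIs in 30.7% and 0.725%. Most cells with the transcript had few copies: 11.3% of non-mitotic progenitors had 3 or more UMIs, and the highest had 7.

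*Gpx3* had the flattest profile. Its levels were 32.3 CPM (28.4 to 36.5) in non-mitotic, 27.3 CPM in intermediate and 24.1 CPM in mitotic progenitors, 14.3 CPM in neurogenic cells, 10.1 CPM in RGC-marker cells and 4.47 CPM in AC/HC-marker cells. No 2 neighbours in the order of the 8 groups differed beyond counting error, although non-mitotic progenitors were 3.19-fold (2.38 to 4.35) above RGC-marker cells. The GFP+ cone-marker cells were at 4.24 CPM (3.26 to 5.42), 13.1% of the non-mitotic level, the largest such share of the 8 genes, before 9.60% for *Mdfi* with an overlapping interval. In RGC-marker cells the level depended on the upper limit on genes: with the 577 RGC-marker cells above it, *Gpx3* was at 17.4 CPM.

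*Sparc* was found in most progenitors. A UMI was present in 87.8% (85.5 to 89.9) of non-mitotic, 86.3% of intermediate and 86.4% of mitotic progenitors, at 343 CPM (330 to 356), 277 CPM and 263 CPM. Neurogenic cells were at 90.97 CPM and RGC-marker cells at 32.5 CPM, while AC/HC-marker cells were at 8.95 CPM (5.85 to 13.1) and GFP+ cone-marker cells at 2.08 CPM. Unassigned GFP− cells stood apart at 261 CPM (219 to 308), and 107 of their 140 UMIs came from 2 cells with at least 20 *Sparc* UMIs each, both of which carried microglia markers. In the unassigned group all 5 microglia genes were detected and summed to 499 CPM, against 0.246 to 14.1 CPM in the other GFP− groups. Without cells that carry non-retinal markers, the unassigned cells were at 60.7 CPM (41.0 to 86.7).

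The 2 lysophospholipid receptors were rarer. *Lpar1* was at 53.4 CPM (48.5 to 58.8) in non-mitotic and 45.3 CPM (38.9 to 52.5) in intermediate progenitors, with an interval of their ratio that spans 1, and at 30.5 CPM (25.4 to 36.3) in mitotic progenitors. A UMI was found in 35.3% of non-mitotic progenitors, 8.97% of neurogenic cells, 1 of the 415 AC/HC-marker cells and none of the 66 GFP− cone-marker cells, where the interval reaches 10.4 CPM. With no upper limit on genes, 69 cone-marker cells held 4 *Lpar1* UMIs (9.78 CPM). *S1pr3* was at 28.4 CPM (24.8 to 32.3) in non-mitotic, 21.1 CPM in intermediate and 18.7 CPM in mitotic progenitors and at 4.83 CPM (3.09 to 7.19) in neurogenic cells. AC/HC-marker cells were at 4.13 CPM (2.13 to 7.21) and RGC-marker cells at 2.02 CPM (1.01 to 3.62), and of these 3 groups neurogenic and RGC-marker cells were separated (2.39-fold, 1.13 to 5.40). In AC/HC-marker cells *S1pr3* was at 14.6% (7.42 to 26.0) of its non-mitotic level and *Lpar1*, with 1 UMI, at 0.644% (0.0163 to 3.61). With no upper limit on genes, 29 more AC/HC-marker cells brought *Lpar1* to 12 UMIs (3.54 CPM) and *S1pr3* to 13 UMIs (3.84 CPM), beside 53.5 and 29.5 CPM in non-mitotic progenitors.

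*Acot1*, the thioesterase, was at 23.2 CPM (19.96 to 26.8) in non-mitotic, 17.5 CPM in intermediate and 13.03 CPM (9.76 to 17.0) in mitotic progenitors. Neurogenic cells were at 9.26 CPM (6.78 to 12.3), RGC-marker cells at 3.68 CPM and AC/HC-marker cells at 2.07 CPM. *Mdfi*, the scarcest of the 8, gave 100 UMIs in the 901 non-mitotic progenitors (12.6 CPM, 10.3 to 15.3) and 34 in mitotic progenitors (8.36 CPM). It gave 9 UMIs in the 580 neurogenic cells (1.81 CPM), 5 in RGC-marker cells and 4 in AC/HC-marker cells. No neighbours in the *Mdfi* order were separated. In GFP+ cone-marker cells *Mdfi* was at 1.21 CPM (0.717 to 1.91), within the intervals of the GFP− neurogenic, RGC-marker and AC/HC-marker cells.

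*Dapl1* was the most widely detected. A UMI was present in 98.1% of non-mitotic and 99.2% of mitotic progenitors, at 909 CPM (889 to 931) and 980.0 CPM (950 to 1011), and thinned to 3200 UMIs in 90.2% and 90.9%. Neurogenic cells were at 278 CPM, RGC-marker cells at 152 CPM, AC/HC-marker cells at 85.4 CPM (75.1 to 96.7) and GFP− cone-marker cells at 64.9 CPM (41.1 to 97.4). A UMI was still found in 36.4% of AC/HC-marker cells, and what part of these came from free RNA in the droplets was not tested. The AC/HC-marker cells held 9.38% (8.24 to 10.7) of the non-mitotic level for *Dapl1*. Shares were lower for *Cp*, at 1.93% (0.775 to 3.998), and *Sparc*, at 2.61% (1.70 to 3.84). *Sfrp2*, a progenitor marker of the grouping, was at 3.62% (3.09 to 4.22). *Lpar1* (0.644%) and the progenitor gene *Ccnd1* (3.53%) were also lower. *Acot1* was at 8.91% (3.23 to 19.8), an interval that overlaps that of *Dapl1*. The progenitor gene *Fgf15* was higher, at 11.04% (10.16 to 11.98), as were *S1pr3* (14.6%), *Gpx3* (13.9%) and *Mdfi* (10.9%). The intervals of these higher shares all overlapped that of *Dapl1*. What sets these shares was not tested. *Dapl1* in the GFP+ cone-marker cells, 13.3 CPM (11.5 to 15.3), was at 1.46% of the non-mitotic level. In the same cells *Sfrp2* was at 1.48%, *Ccnd1* at 0.764% (0.671 to 0.866) and *Fgf15* at 0.342% (0.277 to 0.418). With the 37 GFP+ cone-marker cells above the gene limit, the levels in GFP+ cone-marker cells were 28.2 CPM for *Dapl1*, 2.61 CPM for *Cp* (0.403 CPM without them) and 5.41 CPM for *Sparc* (2.08 CPM).

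The label of a non-mitotic gene set was then compared with the cell cycle groups. None of the 8 genes was at least 2-fold higher in non-mitotic than in mitotic progenitors, against 7.17% of the 12581 genes tested in that contrast. That share was smaller among genes with at least 100 UMIs, as all 8 had here, and is given in the last section. A count of none among 8 genes lies near either share, so nothing is read from it. The largest ratios were those of *Acot1* (1.78, 1.30 to 2.46) and *Lpar1* (1.75, 1.43 to 2.16), followed by *S1pr3* (1.52, 1.165 to 1.99) and *Mdfi* (1.51, 1.01 to 2.29). *Gpx3* (1.34, 1.06 to 1.71), *Sparc* (1.30, 1.21 to 1.399) and *Cp* (1.24, 1.11 to 1.398) were closer to 1. *Dapl1* was lower in non-mitotic than in mitotic progenitors (0.928, 0.893 to 0.965). Thinning each cell to 3200 UMIs left few UMIs, and the scarce genes then depended on the random draw. *Mdfi* was at 2.13 (1.06 to 4.71, 48 against 10 UMIs) in one draw and 1.23 (0.635 to 2.52, 36 against 13) in another. *Gpx3* was at 0.975 (0.664 to 1.45) and 1.21 (0.797 to 1.90), and *Acot1* at 1.56 (0.951 to 2.67) and 2.44 (1.31 to 4.95). *Cp*, which is not scarce, had intervals that span 1 in both draws (1.16, 0.953 to 1.42, and 1.095, 0.899 to 1.34). That of *S1pr3* spanned 1 in the first draw only (0.938 to 2.47). In CPM of all UMIs, 7 genes were thus moderately higher in non-mitotic progenitors and *Dapl1* was higher in mitotic ones, all 8 being read throughout the cycle groups. After thinning, only *Sparc* and *Lpar1* of these 7 had intervals above 1 in both draws, and that of *Dapl1* stayed below 1 in both.

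**Figure D2:**
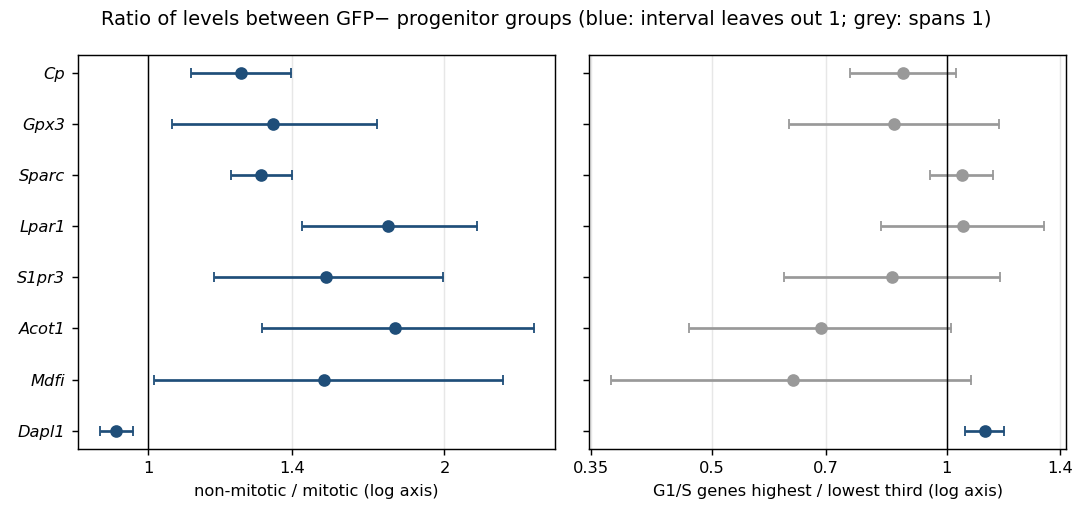
Ratio of levels (log axis) between non-mitotic and mitotic GFP− progenitors, left, and between the non-mitotic progenitors with the most and the fewest UMIs of 15 G1/S genes, right, with 95% exact conditional intervals. Blue intervals leave out 1 and grey ones span it. On the left 7 genes lie above 1 and *Dapl1* at 0.928, and on the right only *Dapl1*, at 1.12, has an interval that leaves out 1.

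Among the non-mitotic progenitors, the tertile of cells with the most UMIs of 15 G1/S genes (8 to 20 in cells thinned to 3200 UMIs, 298 cells) was set against the tertile with the fewest (0 to 5, 299 cells). *Dapl1* was at 947 CPM in the upper and 845 CPM in the lower tertile (1.12, 1.06 to 1.19). For the other 7 genes the interval of the ratio spanned 1. The lowest ratios were 0.636 (0.371 to 1.07) for *Mdfi* and 0.690 (0.467 to 1.01) for *Acot1*, and that of *Sparc* was the narrowest at 1.05 (0.952 to 1.15).

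All 8 genes were lower in neurogenic cells. The ratio of non-mitotic progenitors to neurogenic cells was 6.96 (3.52 to 15.7) for *Mdfi*, 5.87 (3.85 to 9.35) for *S1pr3*, 4.36 (3.65 to 5.24) for *Cp* and 4.35 (3.32 to 5.79) for *Lpar1*. It was 3.77 (3.41 to 4.17) for *Sparc*, 3.27 (3.09 to 3.47) for *Dapl1*, 2.50 (1.80 to 3.54) for *Acot1* and 2.26 (1.73 to 2.98) for *Gpx3*. The 2 groups also differ in cycle. The 10 mitotic genes summed to 1513 CPM in neurogenic cells, 77.4 CPM in non-mitotic and 2691 CPM in mitotic progenitors. The part of the cycle in these ratios was not tested. *Acot1* had overlapping intervals in mitotic progenitors (13.03 CPM, 9.76 to 17.0) and neurogenic cells (9.26 CPM, 6.78 to 12.3). All 8 were at least 2-fold higher in non-mitotic progenitors, as were 10.9% of the 12774 genes tested, and nothing is read from this count because the members were selected on these cells. The median of the 8 ratios was 4.03 and that of all genes tested 1.02. Thinned to 3200 UMIs, *Gpx3* was at 1.76-fold and 7 of 8 reached 2-fold.

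Levels pooled over cells were lower at many than at 0 neurogenic UMIs. Whether levels fall gradually within cells or the mix of cells changes between the bins was not tested. GFP− cells without cone, AC/HC or RGC markers were ordered by their UMIs of *Atoh7*, *Neurog2* and *Olig2*, into 1341 cells with 0, 450 with 1 to 2, 262 with 3 to 9 and 318 with 10 or more. *Cp* was at 114 CPM (108 to 120), 101 CPM (91.4 to 111), 45.4 CPM (36.9 to 55.2) and 15.2 CPM (10.9 to 20.5) in this order. *Sparc* went from 316 CPM through 270 CPM and 144 CPM to 48.8 CPM (40.9 to 57.8), and *Dapl1* from 915 CPM through 837 CPM and 438 CPM to 151 CPM (137 to 166). For each of these 3 genes the intervals of the last 3 bins lay apart, in descending order. *Lpar1* was at 47.0 CPM in the first and 8.315 CPM in the last bin, and *S1pr3* at 25.03 CPM and 2.89 CPM. *Mdfi* gave 1 UMI in the last bin (0.362 CPM) against 141 UMIs in the first (11.4 CPM), a ratio of 31.6 whose counting interval runs from 5.58 to 1257. *Gpx3* and *Acot1* kept more of their level: the first bin exceeded the last 2.37-fold (1.66 to 3.50) and 2.53-fold (1.62 to 4.16), and *Gpx3* had overlapping intervals with 1 to 2 neurogenic UMIs (29.9 CPM, 24.8 to 35.7) and with 0 (28.3 CPM, 25.4 to 31.4).

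**Figure D3:**
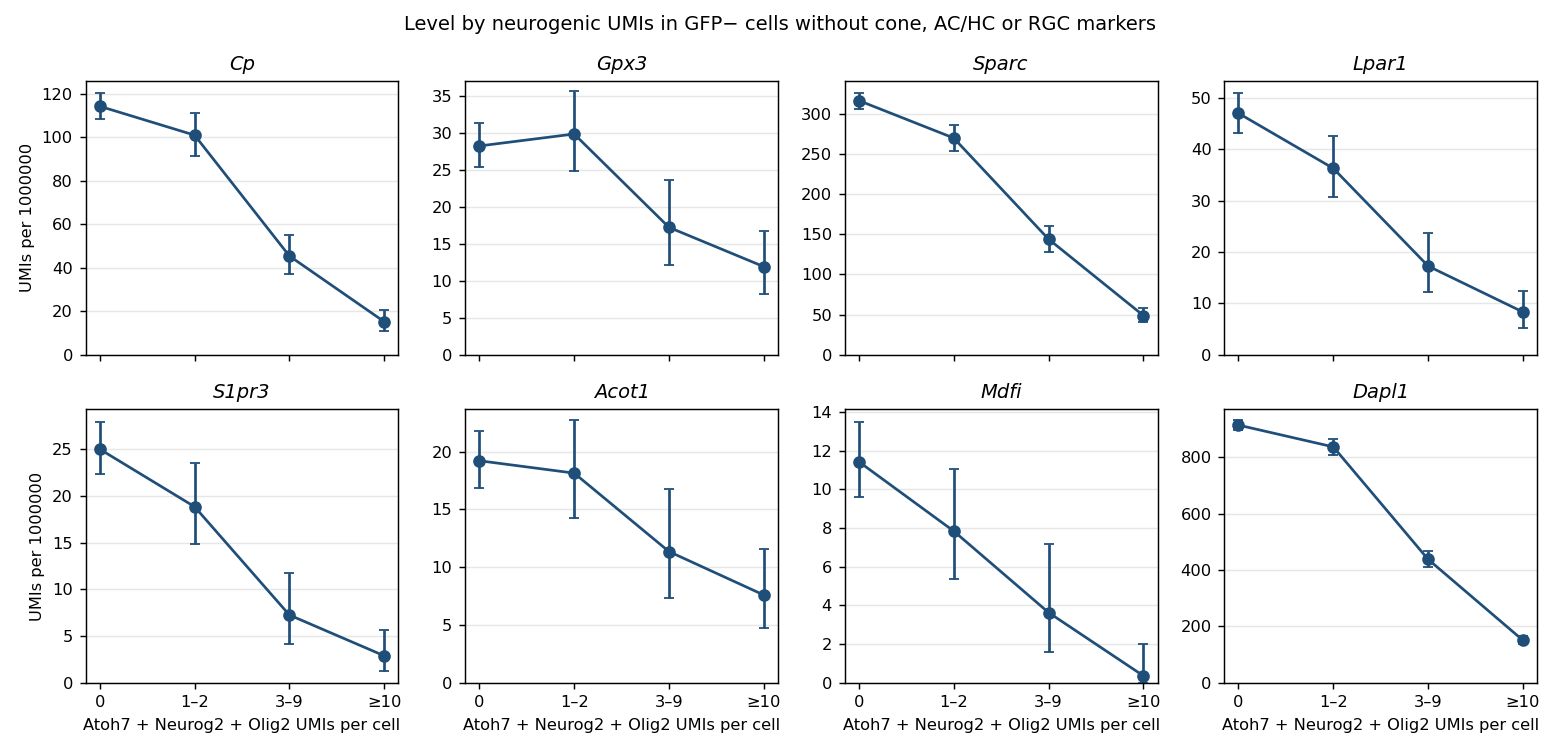
Level of each gene in UMIs per 1000000 (linear axis from 0, own scale per panel) in GFP− cells without cone, AC/HC or RGC markers, by UMIs of *Atoh7*, *Neurog2* and *Olig2* per cell, with 95% exact Poisson intervals. Levels in the bin of 10 or more lie below those in the bin of 0 for every gene, from 2.37-fold for *Gpx3* to 6.07-fold for *Dapl1*, 7.52-fold for *Cp* and 31.6-fold for *Mdfi*, which rests on 1 UMI.

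RGC-marker cells were also divided by progenitor markers. In the 101 RGC-marker cells with at least 3 UMIs of progenitor markers, *Cp* was at 58.7 CPM (44.7 to 75.8), *Sparc* at 155 CPM (132 to 182), *Lpar1* at 34.8 CPM (24.3 to 48.45) and *Dapl1* at 498 CPM (455 to 543). In the 436 without, these were 1.80 CPM (0.778 to 3.55), 4.73 CPM (2.93 to 7.23), 1.35 CPM (0.496 to 2.94) and 73.2 CPM (65.5 to 81.7). *Gpx3* had overlapping intervals in both, 12.9 CPM (6.89 to 22.1) and 9.47 CPM (6.82 to 12.8). Median depths were 10093 and 10499 UMIs per cell, and whether the first group holds doublets of an RGC and a progenitor was not tested beyond Scrublet, which marked none of the kept GFP− cells.

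The rule that picked the genes did not use position in the retina. GFP− progenitors with at least 2 UMIs of dorsal genes (*Tbx5*, *Tbx2*, *Tbx3*, *Aldh1a1*, *Efnb1*, *Efnb2*) and 0 of ventral genes (*Vax2*, *Vax1*, *Aldh1a3*, *Ephb2*, *Bmpr1b*) (294 cells, median 9249 UMIs) were compared with the reverse (372 cells, median 9690.5 UMIs). *Mdfi* was at 17.4 CPM (12.8 to 23.2, 47 UMIs) in dorsal-marker and 4.21 CPM (2.35 to 6.94, 15 UMIs) in ventral-marker progenitors, a ratio of 4.15 (2.28 to 7.99) that ranked 42 among 11599 genes. *Gpx3* was at 33.0 CPM against 21.6 CPM (1.53, 1.12 to 2.104) and *Dapl1* at 973 CPM against 792 CPM (1.23, 1.16 to 1.30). *Cp* was lower dorsally, 103 CPM against 127 CPM (0.811, 0.696 to 0.943). *Acot1*, at 1.47 (0.9996 to 2.18), *Lpar1*, *Sparc* and *S1pr3* had intervals that span 1. *Mdfi* was the 1 gene of 8 at least 2-fold apart, beside 5.47% of all genes tested apart either way and 2.78% higher dorsally.

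**Figure D4:**
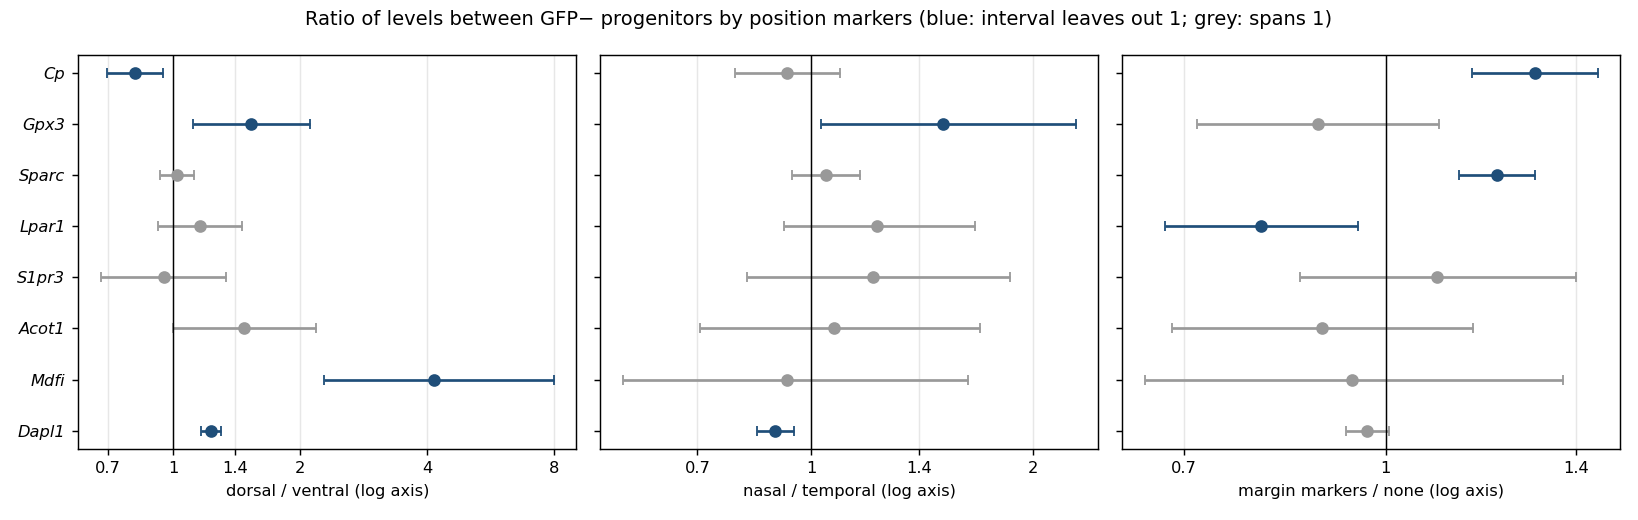
Ratio of levels (log axis, own range per panel) between GFP− progenitors with dorsal and ventral, nasal and temporal, and margin and no margin markers, with 95% exact conditional intervals. Blue intervals leave out 1 and grey ones span it. *Mdfi* lies at 4.15 in the dorsal over ventral panel, and all other points of the 3 panels lie between 0.802 and 1.53.

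The dorsal level of *Mdfi* was seen in each cycle group. The dorsal over ventral ratio was 4.56 (2.03 to 11.6) in non-mitotic, 4.04 (1.20 to 17.4) in intermediate and 3.26 (0.783 to 19.1) in mitotic progenitors, the last with 8 against 3 UMIs. Single markers gave smaller and mixed ratios. Progenitors with an *Aldh1a1* UMI had 1.93-fold (1.37 to 2.67) the *Mdfi* level of those without, and an *Efnb2* UMI went with 1.51-fold (1.09 to 2.07). On the ventral side *Vax2* went with 0.587-fold (0.412 to 0.825) and *Aldh1a3* with 0.536-fold (0.358 to 0.781). For the other 7 of the 11 markers the interval spanned 1, namely dorsal *Tbx5* (1.77), *Tbx3* (1.38), *Tbx2* (1.17) and *Efnb1* (1.05) and ventral *Ephb2* (0.789), *Bmpr1b* (0.547) and *Vax1* (1.12, with 4 *Mdfi* UMIs), the last in the other direction. In neurogenic cells *Mdfi* gave 2 UMIs in dorsal-marker and 1 in ventral-marker cells, too few to compare.

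*Dapl1* was also 1.20-fold (1.12 to 1.29), 1.26-fold and 1.25-fold higher in dorsal-marker cells of the 3 cycle groups. It was lowest beside *Vax1*, at 576 CPM in the 33 progenitors with a *Vax1* UMI against 922 CPM without (0.624, 0.538 to 0.720). *Acot1* was higher with *Aldh1a1* (1.62, 1.25 to 2.08) and lower with *Aldh1a3* (0.672, 0.510 to 0.876). *Gpx3* was 1.73-fold (1.14 to 2.63) higher dorsally in non-mitotic progenitors, and in mitotic progenitors its ratio was 1.05 (0.443 to 2.44). With single markers the ratio of *Gpx3* was mixed. It was below 1 with 4 of the 6 dorsal markers (*Tbx5* 0.933, *Tbx2* 0.873, *Tbx3* 0.833, *Efnb1* 0.896, all spanning 1), above 1 with *Efnb2* (1.27, 1.04 to 1.55) and *Aldh1a1* (1.24, 0.990 to 1.54), and between 0.952 and 1.22 with the 5 ventral ones.

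**Figure D5:**
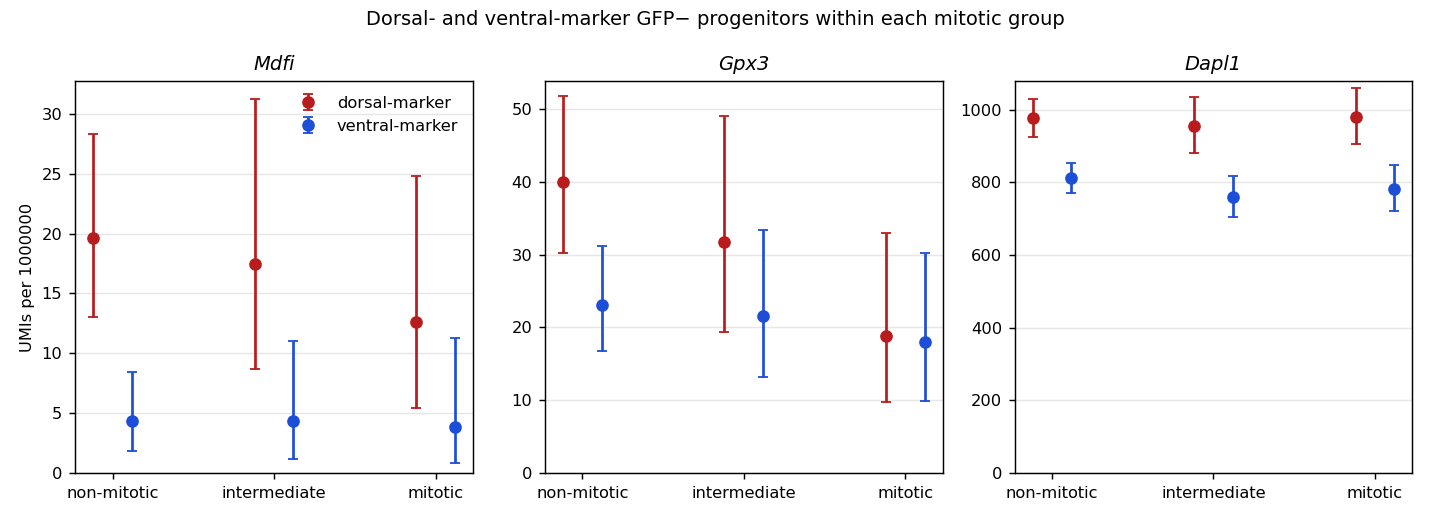
Levels of *Mdfi*, *Gpx3* and *Dapl1* in UMIs per 1000000 (linear axis from 0) in dorsal-marker (red) and ventral-marker (blue) GFP− progenitors of the 3 cycle groups, with 95% exact Poisson intervals. Dorsal-marker cells lie above ventral-marker cells in all 3 groups for *Mdfi* (19.6 against 4.30 CPM in non-mitotic progenitors) and *Dapl1* (977 against 812 CPM), while for *Gpx3* the 2 points nearly coincide in mitotic progenitors (18.9 against 18.0 CPM).

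Along the nasal to temporal axis, *Gpx3* was 1.51-fold (1.03 to 2.28) higher in the 829 progenitors with nasal markers than in the 152 with temporal markers, and *Dapl1* was lower (0.893, 0.843 to 0.946). The other 6 intervals spanned 1. At least 2 UMIs of genes of the ciliary margin were found in 747 of the 1708 GFP− progenitors. Whether these cells lay at the margin was not tested. They had more *Cp*, 129 CPM against 99.4 CPM in progenitors without such UMIs (1.30, 1.17 to 1.45). They also had more *Sparc*, 329 CPM against 270.4 CPM (1.22, 1.14 to 1.30). *Lpar1* was lower with margin markers, 41.6 CPM against 51.8 CPM (0.802, 0.677 to 0.952). Median depths differed, at 9733 UMIs per cell with margin markers and 8728 without, and the part of depth in these ratios was not tested.

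A small set of cells stood out for several of the genes. In the 10 GFP− cells with at least 3 UMIs over *Pax2* and *Gfap*, markers of optic stalk and astrocytes, *Sparc* was at 1025 CPM (832 to 1249), *Cp* at 387 CPM (272 to 533) and *Acot1* at 167 CPM (95.6 to 272). *S1pr3* and *Mdfi* were each at 62.7 CPM (23.0 to 137, 6 UMIs). The intervals of *Sparc*, *Cp*, *Acot1* and *Mdfi* lay above those of the non-mitotic progenitors, and that of *Dapl1*, at 533 CPM (397 to 701), lay below. The 10 cells are not a group apart from those above. Non-mitotic progenitors held 60 UMIs of *Pax2* and *Gfap* and unassigned cells 0, so the cells compared may overlap. Of the endothelial markers, *Kdr* made up 53.6 of the 57.2 CPM summed in non-mitotic progenitors, and *Cdh5* and *Tek* were at 0 UMIs there. The sum was 60.2 CPM in mitotic progenitors and highest in AC/HC-marker cells, at 265 CPM (769 UMIs). Leaving out all cells with at least 3 UMIs over the non-retinal marker lists kept each count of genes given above. This step did not spare cells of the retinal groups that carried such UMIs.

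Detection of the genes together was also described within single cells. Thinned to 3200 UMIs, a non-mitotic progenitor had a UMI of 2.25 of the 8 genes on average, 98.2% had at least 1 and 9.71% at least 4. The means were 2.05 in mitotic progenitors, 0.859 in neurogenic cells, 0.430 in RGC-marker cells, 0.268 in AC/HC-marker cells and 0.0554 in GFP+ cone-marker cells, of which 94.8% had none. Among the non-mitotic progenitors, *Sparc* was found in 65.1% (59.1 to 70.7) of cells with *Cp* and in 59.7% (55.8 to 63.6) of those without. *S1pr3* was found in 10.2% (5.56 to 16.9) of cells with *Lpar1* and in 8.71% (6.82 to 10.9) of those without. In none of the 56 ordered pairs of the 8 genes were the intervals apart, and at this depth a weak association could not have been detected.

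Across the 9 groups of at least 50 cells, the log2(CPM + 10) profiles of the 8 genes had Pearson correlations with each other from 0.780 (*Sparc* and *Mdfi*) to 0.984 (*Gpx3* and *Sparc*). The groups share libraries and depth, so these values are descriptions. The unassigned cells are among the 9 groups, and 107 of their 140 *Sparc* UMIs came from 2 cells with microglia markers. How far this group sets the correlations of *Sparc*, which is in both the lowest and the highest pair, was not tested. Of 11792 genes, the profile most like that of *Cp* was *Fat3* (0.991), then *Nr2e1*, itself a marker that set the progenitor groups, and *Dio3*. Those most like *Gpx3* were *Efcab1* (0.988), *Crtap* and *Hebp1*, and *Efcab1* was also nearest to *Sparc* (0.993), before *Mecom* and *Fau*. In the unassigned cells the levels of *Efcab1* and *Mecom* rested on 7 UMIs each. *Lpar1* was nearest to *Col9a2* (0.991), *Rhod* and *Pmp22*, and *S1pr3* to *E530001K10Rik* (0.990), *Notch3* and *Slc38a4*. *Mdfi* was nearest to *C130026L21Rik* (0.987), *Slc38a4* and *Rnf144b*. *Acot1* was nearest to the ribosomal protein genes *Rps26* (0.991), *Rpl30* and *Rpl36*, and *Rps21* and *Rpl36a* (both 0.989) were among the 3 nearest to *Dapl1*. A like profile did not mean a like range, since *Rps26* was at 3582 CPM in non-mitotic progenitors and 1967 CPM in GFP+ cone-marker cells, a far narrower span than that of *Acot1*.

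The other genes of each pathway are set beside the shares of all genes. The 8 were picked for their level in progenitors, so their own agreement in these contrasts was given in advance and is no standard for the lists. Of all genes tested, 16.8% were at least 2-fold higher and 23.0% at least 2-fold lower in GFP− cells, and 10.9% were higher and 7.03% lower in non-mitotic progenitors than in neurogenic cells. Of 15 iron handling genes with at least 10 UMIs, 3 were at least 2-fold higher in GFP− cells (*Heph*, the membrane ferroxidase related to *Cp*, at 2.54-fold, *Steap2* at 2.55-fold, and *Trf* with 17 against 0 UMIs), and 2 were at least 2-fold lower (*Slc40a1* and *Ncoa4*). Their median ratio was 0.765, beside 0.814 for all genes tested. None of 13 differed 2-fold between non-mitotic progenitors and neurogenic cells, where *Heph* was at 13.9 against 13.3 CPM (1.04, 0.762 to 1.44), and *Cp* differed 4.36-fold. Of 20 glutathione and peroxide enzymes, 7 were at least 2-fold higher in GFP− cells, among them *Gpx8* (3.67), *Prdx4* (3.03) and *Txnrd1* (2.95), and 3 lower, among them *Gpx4* (0.498), with a median of 1.43. *Gpx7*, at 2.26-fold (1.78 to 2.89), was the only 1 of 19 at least 2-fold higher in non-mitotic progenitors than in neurogenic cells.

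Between the gates, the matrix list had the largest share of members in the direction of *Sparc*. In GFP− cells 16 of its 21 genes were at least 2-fold higher, with a median ratio of 4.46, among them the collagens *Col9a2* (45.7-fold) and *Col4a1* (12.1-fold), *Fstl1*, a SPARC family member, (22.4-fold) and fibronectin, *Fn1* (11.3-fold). *Spock2* (0.207) and the laminin *Lama1* (0.424) were lower. Between non-mitotic progenitors and neurogenic cells, 7 of 19 were higher, including *Col9a1* (4.13-fold), also a margin marker above, *Col9a2* (3.44-fold) and *Col4a1* (3.04-fold), and 3 lower. Other SPARC family genes did not follow *Sparc* there, since *Spock1* (0.265) and *Spock2* (0.175) were lower in progenitors, *Fstl1* was at 1.02 (0.901 to 1.16) and *Smoc1* at 0.729 (0.572 to 0.930). *Smoc1* also differed in position, with 3 UMIs in dorsal-marker against 124 in ventral-marker progenitors (0.0320, 0.00652 to 0.0958), where *Sparc* had a ratio of 1.02 (0.930 to 1.12).

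Of 16 other genes for LPA and S1P receptors and enzymes, 5 were at least 2-fold higher in GFP− cells and 4 lower, the latter near the share of all genes, with a median ratio of 0.807. The receptors went different ways: *S1pr1* was at 8.77 against 0.452 CPM (19.4-fold, 9.30 to 48.8) and *S1pr2* was 4.12-fold higher, whereas *Lpar2* (0.256) and *Lpar6* (0.466) were lower in GFP− cells. *S1pr2* was also 4.204-fold (1.89 to 11.02) higher in non-mitotic progenitors than in neurogenic cells, as were the lipid phosphatase *Plpp2* (3.26-fold) and the sphingosine kinase *Sphk1* (2.23-fold), 3 of 14 in all, while *Spns2*, an S1P exporter, was lower with 1 against 9 UMIs. *Plpp3* was 2.096-fold (1.55 to 2.86) higher in dorsal-marker progenitors. Of 8 other acyl-CoA thioesterases, *Acot11* alone was at least 2-fold higher in GFP− cells (31 against 3 UMIs), but 3 of 7 were in non-mitotic progenitors over neurogenic cells (*Acot11*, *Acot2* and *Acot6*, the last at 2.19 with an interval of 0.855 to 6.64) and none lower, with a median ratio of 1.59 beside 1.51 for the matrix list. Between dorsal-marker and ventral-marker progenitors 2 of 7 were higher and 1 lower. *Acot2*, which shares sequence with *Acot1*, was at 9.30 and 9.42 CPM in the gates (0.988, 0.806 to 1.22), and it was 2.85-fold (1.87 to 4.50) higher in non-mitotic progenitors than in neurogenic cells. *Mdfic*, the relative of *Mdfi*, was 3.95-fold (2.30 to 7.29) higher in GFP− cells and at 5.04 and 5.03 CPM in non-mitotic progenitors and neurogenic cells (interval of the ratio, 0.593 to 1.72), and *Dap*, the relative of *Dapl1*, was 1.58-fold higher in GFP− cells and 2.21-fold higher in non-mitotic progenitors.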

How the data were processed

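Retinal cells of E14.5 *LHX4::GFP* embryos were sorted into GFP+ and GFP− fractions and captured on a droplet platform that tags 3′ ends. The authors deposited 1 filtered count matrix per fraction, made with Cell Ranger 2.1.1 on mm10 (GRCm38), holding UMI counts per gene and cell with no normalization. Cells with more than 250 and fewer than 3500 genes and under 25% mitochondrial UMIs were kept. Groups followed the first rule met: cone-marker cells had at least 3 UMIs over *Gngt2*, *Gnb3*, *Pdc* and *Thrb*, AC/HC-marker cells at least 2 over *Tfap2a*, *Tfap2b* and *Ptf1a*, RGC-marker cells at least 2 over 5 genes that include *Pou4f2*, *Pou4f1*, *Isl1* and *Rbpms*, neurogenic cells at least 3 over *Atoh7*, *Neurog2* and *Olig2*, and progenitors at least 3 over 4 genes that include *Hes1*, *Nr2e1* and *Sfrp2*. The other markers are not reported here. Counts were summed per group and scaled to 1000000 (Python 3.11.15, scipy 1.17.1), and intervals of levels, ratios and shares were exact Poisson, conditional binomial and Clopper-Pearson intervals at 95%. Kept totals were 15503658 UMIs (GFP+) and 30094636 UMIs (GFP−). Genes with at least 10 UMIs over the groups compared counted as tested, and 2-fold was the limit for a count. Predicted doublets (Scrublet in scanpy 1.11.5, expected rate 0.03) numbered 3 GFP+ and 55 GFP− cells of those deposited. The cell filters kept 2 of them in the GFP+ and 0 in the GFP− library, and these were left in. The caller marked 0.0805% of GFP+ cells, too few to have worked, so doublets may remain there. TMM factors came from edgeR 4.0.16. The code was tested on simulated data. The members and gene lists were chosen with earlier results of these data known. Named genes are the 8 members, the genes of the lists, the markers, the progenitor genes *Ccnd1* and *Fgf15*, and for each member the 3 genes of highest Pearson correlation of log2(CPM + 10) over groups of at least 50 cells, among genes with at least 100 UMIs. Promoter windows came from RefSeq and gene positions from the GENCODE annotation of GRCm38.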

Additional observations from a re-analysis of the deposited data

How the results depend on the processing

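No paired analysis was possible because each gate has 1 library. The counts of genes (8 higher in GFP− cells, 7 highest in non-mitotic progenitors, 0 at least 2-fold above mitotic progenitors, 1 apart between dorsal and ventral, 8 above neurogenic cells) were equal under every setting run except thinning to 3200 UMIs, where they were 8, 6, 1 (*Mdfi*), 1 and 7. Thinning also reversed *Gpx3* between non-mitotic and mitotic progenitors, to 0.975. Both depend on the random draw, since a second draw, added after the data were seen, gave 1.21 for *Gpx3*, 1.23 for *Mdfi* and 2.44 for *Acot1*. The share of all genes at least 2-fold higher in non-mitotic than mitotic progenitors was 17.7% with no filter on low counts and 1.57% among genes with at least 100 UMIs, which by construction tests more or fewer scarce genes. Of 296 single-gene ratios under other settings, 263 stayed within the counting interval of the main ratio and 32 moved outside it. A change of direction was counted only where that interval left out 1, and 1 ratio reversed in this sense. Leaving out predicted doublets removed 2 kept GFP+ and 0 kept GFP− cells. Under that setting, results within GFP− cells were therefore the same by construction, and they count among those unchanged. Most of those that moved were gate ratios, in which *Cp* ranged from 18.5 (no upper limit on genes) to 233 (GFP− progenitors and neurogenic cells against GFP+ cone-marker cells). Leaving out cells with non-retinal markers and leaving out shared barcodes were added after the data were seen. Scarce genes limit what can be read, *Mdfi* above all, with 191 UMIs in GFP− cells.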
